A study of Mus musculus with 12 samples.

Results

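The TRP, P2X, ASIC, HCN and Piezo genes encode cation channels, many of which turn heat, cold, irritants, extracellular ATP, acid or touch into electrical signals in sensory neurons. Members were chosen by symbol: every gene named Trpa, Trpc, Trpm, Trpv, P2rx, Asic, Hcn or Piezo followed only by digits. RefSeq holds 40 such genes, of which 35 had a named probe on the array, with 60 of the 25697 probes in all. A total of 29 probes of 21 genes were detected often enough to be tested. The rule uses no measured value.

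The ganglia came from mice of 15 days with a mixed C57/BL6;129Ola background. Each of 12 single-colour Illumina BeadChip arrays carried total RNA of a pool of dorsal root ganglia of lumbar levels 3 to 6, the clusters of sensory neuron cell bodies beside the spinal cord. The labels name 6 pools as control, genotype wildtype, and 6 as Isl1-Cre//c-Maf conditional mutants; they do not say how many mice made a pool, nor which alleles of Cre or Maf the controls carried. Isl1 is a transcription factor of sensory neurons in general, so Cre driven from it is not restricted to neurons that use Maf. Because each array carried a pool, the p-values measure the spread between pools. In a whole ganglion, fewer cells of a type and less RNA per cell cannot be told apart.

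As background, TRPV1 opens to capsaicin and noxious heat, TRPM8 to cooling and menthol and TRPA1 to pungent irritants. P2X receptors are opened by extracellular ATP, ASIC channels by protons, and Piezo channels by membrane stretch. HCN channels open when the membrane hyperpolarises and set firing rate rather than sense a stimulus. Maf, also called c-Maf, is a transcription factor needed for the normal development of several types of touch receptor neuron.

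MAF proteins bind DNA sites built around the core TGCTGA, and TGCTGAC is a longer form of the same half-site, so a match of the longer form is also a match of the core. Both were searched on both strands of the RefSeq promoter windows of build GRCm38.p6, each 300 bases long, from 250 before to 50 after a transcript start. The counts for channel genes cover 36 windows of 30 of the 40 genes, 17 of these 30 being tested genes. The other genes, tested ones among them, were left out of these counts, so whether their windows hold a match is not reported here. The core was found in 5 of the 36 windows (13.9%), against 19.5% of all 32851 windows. The longer form was found in 0 of the 36, against 4.67% of all windows. The windows of the tested acid sensors Asic1, Asic2 and Asic3 and of Trpv1 are shown because the differences discussed first below concern these genes. Capitals mark the core on either strand.
Asic1, chr15:99691974-99692273, plus strand: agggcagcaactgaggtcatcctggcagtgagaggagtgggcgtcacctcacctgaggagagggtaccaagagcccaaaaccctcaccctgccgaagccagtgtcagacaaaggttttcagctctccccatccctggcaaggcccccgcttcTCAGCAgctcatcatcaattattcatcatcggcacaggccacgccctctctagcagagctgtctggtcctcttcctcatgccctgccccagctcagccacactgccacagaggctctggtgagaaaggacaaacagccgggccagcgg
Asic2, chr11:81152854-81153153, minus strand: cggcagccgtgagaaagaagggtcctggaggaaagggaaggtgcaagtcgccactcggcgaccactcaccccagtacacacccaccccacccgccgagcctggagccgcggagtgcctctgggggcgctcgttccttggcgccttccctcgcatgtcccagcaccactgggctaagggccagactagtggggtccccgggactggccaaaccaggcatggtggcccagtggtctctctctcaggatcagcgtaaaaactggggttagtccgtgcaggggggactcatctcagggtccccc
Asic2, chr11:81968347-81968646, minus strand: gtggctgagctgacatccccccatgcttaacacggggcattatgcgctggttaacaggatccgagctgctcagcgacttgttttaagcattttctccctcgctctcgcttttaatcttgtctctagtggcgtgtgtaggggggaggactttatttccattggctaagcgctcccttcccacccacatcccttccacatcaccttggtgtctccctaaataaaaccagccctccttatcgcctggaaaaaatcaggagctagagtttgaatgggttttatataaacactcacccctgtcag
Asic3, chr5:24413201-24413500, plus strand: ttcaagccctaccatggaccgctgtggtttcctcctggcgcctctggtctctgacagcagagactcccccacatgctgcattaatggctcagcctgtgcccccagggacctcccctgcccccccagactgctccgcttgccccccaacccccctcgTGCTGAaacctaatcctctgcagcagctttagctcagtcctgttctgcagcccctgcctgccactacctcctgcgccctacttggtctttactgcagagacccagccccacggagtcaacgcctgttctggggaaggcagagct
Trpv1, chr11:73233899-73234198, plus strand: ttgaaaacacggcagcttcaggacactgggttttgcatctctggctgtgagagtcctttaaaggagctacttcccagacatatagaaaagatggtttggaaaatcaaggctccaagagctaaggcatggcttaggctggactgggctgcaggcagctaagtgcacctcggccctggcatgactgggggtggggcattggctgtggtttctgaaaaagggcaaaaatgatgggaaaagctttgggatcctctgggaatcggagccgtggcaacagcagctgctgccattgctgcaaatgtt
Asic1 and Asic3 hold 1 core each, beginning 98 and 94 bases before the start, while the windows of Asic2 and Trpv1 hold none. A match describes these letters and is not a binding site, and the absence of one in a window says nothing about sites elsewhere.

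The targeted gene was read first. The single Maf probe gave log2 levels from 7.11 to 7.87 in the control pools, each of them detected, and from 4.49 to 4.70 in the mutant pools, of which 0 were detected. It is unknown here whether this probe lies within the deleted stretch. Between 12822 and 13491 probes were detected per array. Of the sensory neuron markers, Isl1, Pou4f1, Avil, Prph and Uchl1 were detected on all 12 arrays. The single probes of Snap25 and Nefl, genes known from sensory neurons in general, were detected on none, and that of Tubb3 on 6. A probe that stays at background is thus no measure of whether the gene is expressed. Mutant replicate 3 stood apart, with a mean correlation to the other arrays of 0.9805, where the other 11 had 0.985 to 0.988.

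Detection divided the channels before any comparison of genotypes. A probe counts as detected on an array when its detection p, which sets it against that array's negative controls, is under 0.05. Of the 60 probes, 21 were detected on all 12 arrays and 21 on none. Tested probes, those detected on at least 6 arrays, made up 48.3% of the 60, against 51.3% of all probes on the array. Hcn4, Piezo1 and Trpc2 were among the genes without a named probe, which were not analysed here.

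Among the genes with a probe, 10 were detected on no array. These were the irritant receptor Trpa1, the cold-sensitive Trpc5, the warmth-sensitive Trpv3, the heat-sensitive Trpm5 of taste cells, the ATP receptors P2rx1 and P2rx5, the acid-sensor relatives Asic4 and Asic5, Trpm1, a channel of retinal bipolar cells, and Trpm7, a widely expressed channel kinase. A further 4 were detected on 1 to 5 arrays by their best probe. P2rx2, the partner of P2rx3 in ATP receptors of sensory neurons, was detected in 1 control and 2 mutant pools, and Trpv4, an osmotic and warmth sensor, in 1 and 1. The epithelial calcium channels Trpv5 and Trpv6 were detected in 3 and 2 pools and in 0 and 1. No difference between genotypes can be given for these 14 genes.

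**Figure D1:**
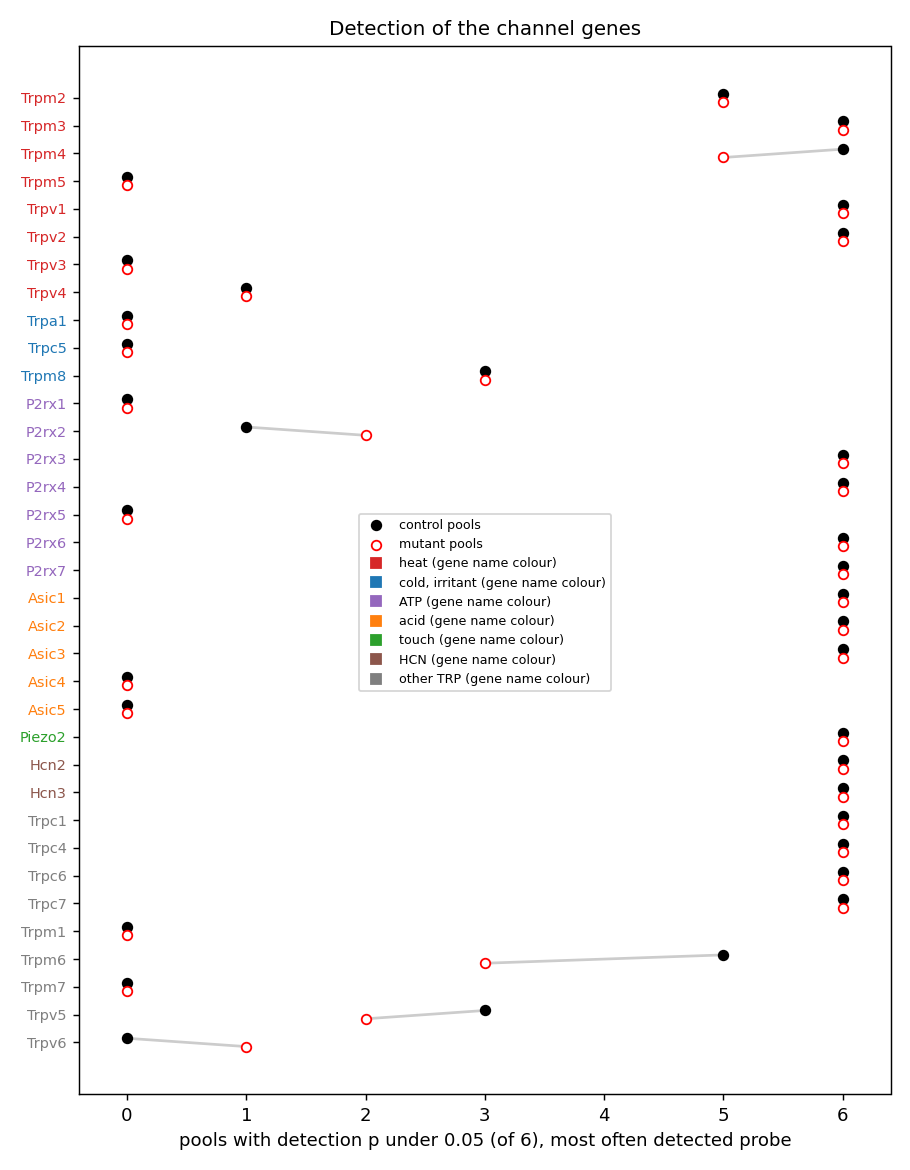
Number of control pools (black) and mutant pools (red, open) out of 6 in which each of the 35 channel genes was detected, by its most often detected probe; gene names are coloured by class. Most genes were detected in all 6 pools of both genotypes or in at most 1 of each, Trpm2, Trpm4, Trpm8, Trpv5 and P2rx2 lay between, and Trpm6 shows the widest gap, with 5 control and 3 mutant pools.

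No channel gene differed between mutant and control ganglia at the threshold used. Under limma, 0 of the 29 tested probes had an adjusted p under 0.05 over all 13177 tested probes, where 0.235% of all tested probes did. At an unadjusted p under 0.05 there was 1 of 29, the brighter Asic2 probe, against a background of 6.34%. In 0 of 29 did the control and mutant pools fail to overlap, against 0.713% of all probes. Changes are log2 differences, mutant minus control. Counted by the brightest tested probe of a gene, 0 of 21 channel genes passed, where 0.271% of all 9223 tested genes did. Of the 21 genes 12 were above 0, against 51% of all tested genes, and 9 below. Their median was 0.05, and that of all tested genes 0.0030. The sizes ran from -0.21 to 0.26 and the median SE was 0.11.

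A p that misses the threshold does not show equal levels, so the intervals are given. The 95% interval of the fold change lay between 0.5-fold and 2-fold for all 29 probes, and within 1.5-fold in either direction for 27. Of all 13177 tested probes, 13062 and 12264 did so. The lowest bound over the 29 was 0.655-fold, for Trpm4, and the highest was 1.64-fold, for the dimmer Hcn3 probe. The 25 genes called elsewhere on the array changed by at least 0.38 on the log2 scale. The intervals of 16 of the 29 channel probes lay wholly inside that size, against 9310 of all 13177 tested probes, a larger share.

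**Figure D2:**
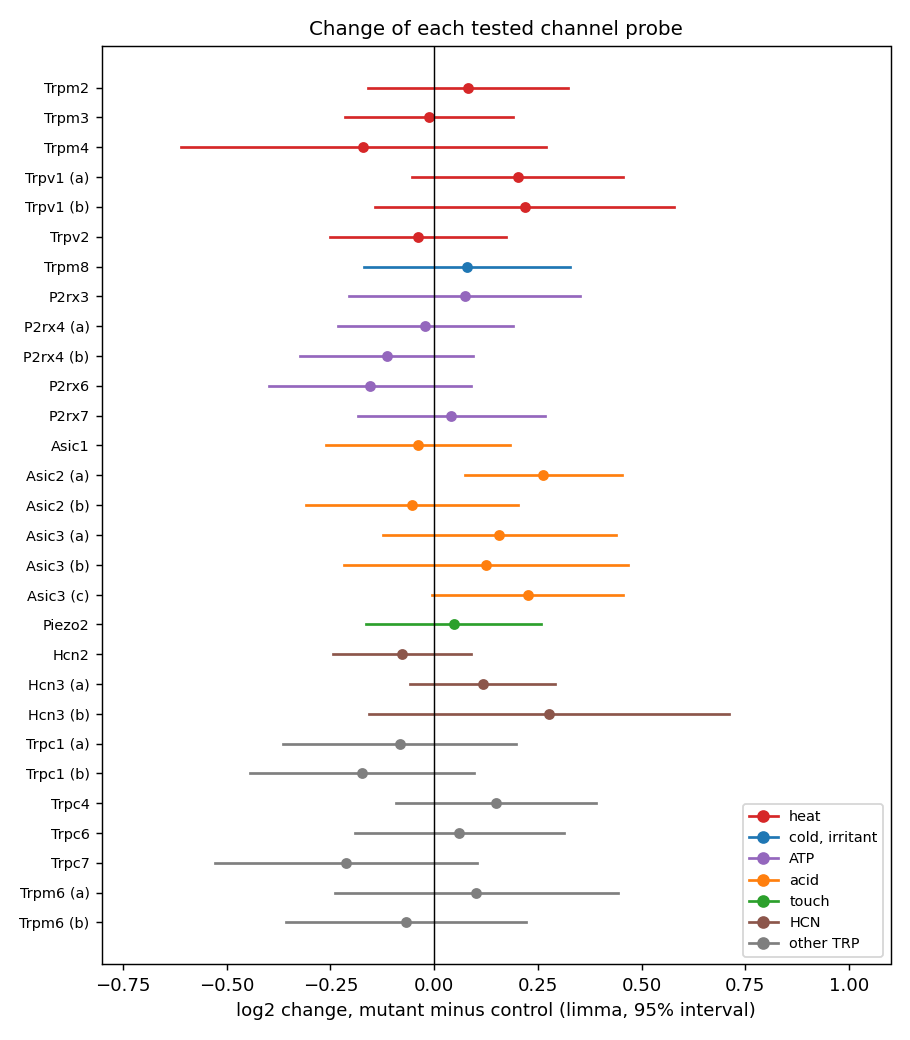
Log2 change, mutant minus control, of each of the 29 tested channel probes with its 95% interval from limma, coloured by class; letters order the probes of a gene from brightest (a) to dimmest. All intervals but that of the brighter Asic2 probe include 0, and the widest are those of Trpm4 and the dimmer Hcn3 probe.

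The acid sensors came closest to a difference. In the class 3 of 5 genes were tested, 0 passed, and the median change was 0.16. Asic2, a subunit that joins ASIC1 or ASIC3 in mixed channels, stood lowest at 8.15, at a median of 8.41 and highest at 8.57 in the control pools by its brighter probe. The mutant pools ran from 8.48 through a median of 8.65 to 8.85. Mutant pools lay mostly above control pools, and the ranges overlapped through 1 mutant and 2 control pools. The change was 0.26 (SE 0.09, limma adjusted p = 0.52), with an interval from 0.07 to 0.45, and it was 0.29 within chip 1 and 0.24 within chip 2. The second Asic2 probe stood elsewhere: its control pools ran from 6.62 to 7.35 and its mutant pools from 6.77 to 7.08, a change of -0.05 (SE 0.12, adjusted p = 0.97). Which Asic2 transcripts each probe reads was not looked up here.

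Asic3, the proton-gated channel of nociceptors and muscle afferents, was read by 3 probes, all with a mutant mean above the control mean. By the brightest probe the control pools ran from 10.49 through a median of 11.07 to 11.21, and the mutant pools from 10.83 through 11.15 to 11.53. The groups overlapped over most of their range, and the change was 0.16 (SE 0.13, adjusted p = 0.93). The second probe ran from 9.05 to 9.93 in control and from 9.27 to 10.14 in mutant pools, a change of 0.12 (SE 0.16). The third ran from 8.52 to 9.12 and from 8.85 to 9.38, a change of 0.23 (SE 0.11, adjusted p = 0.80). The ranges overlapped with each probe. Control replicate 4 held the lowest value of all 12 pools with each of these probes, at 10.49, 9.05 and 8.52. Without it the changes were 0.05, 0.01 and 0.15. Mutant replicate 6 held the highest value of all 12 pools with the brightest and the second probe, at 11.53 and 10.14. Without mutant replicate 6 the changes of the 3 probes were 0.08, 0.04 and 0.21. The 3 probes read the same RNA and are not independent. The brightest probe stood at -0.10 within chip 1 and 0.41 within chip 2.

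Asic1, the most widely expressed proton-gated subunit of the nervous system, was at 9.96 to 10.38 in control and 9.87 to 10.42 in mutant pools. The medians were 10.14 and 10.04, and the mutant range enclosed that of the controls. The change was -0.04 (SE 0.10, adjusted p = 0.98), with an interval from 0.835-fold to 1.13-fold.

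**Figure D3:**
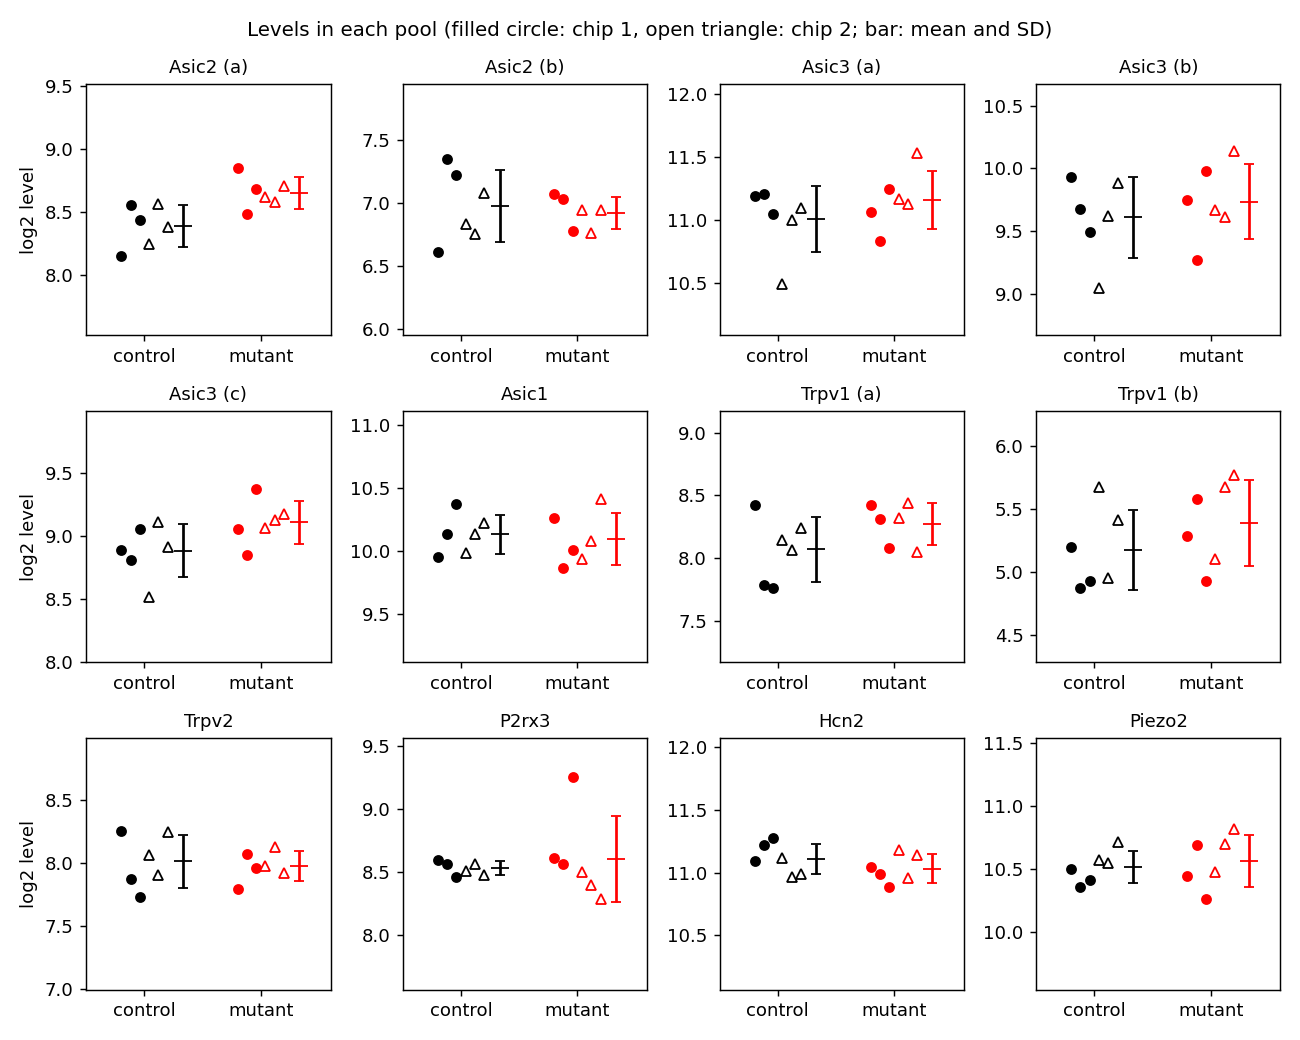
Log2 levels of 12 channel probes in each of the 6 control (black) and 6 mutant (red) pools, with filled circles for chip 1, open triangles for chip 2, and the group mean and SD beside them; each vertical axis spans 2 log2 units around the probe's own mean. Control replicate 4 is lowest with each Asic3 probe, and mutant replicate 3 stands alone at 9.25 for P2rx3.

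Of the heat and warmth sensors 5 of 8 genes were tested and 0 passed, with a median change of -0.01. Trpv1, the capsaicin receptor, ran from 7.76 through a median of 8.11 to 8.43 in control pools and from 8.05 through 8.32 to 8.44 in mutant pools by its brighter probe. Control replicates 2 and 3 lay below all mutant pools, and the remaining pools were mixed. The change was 0.20 (SE 0.12, adjusted p = 0.87), with 0.28 within chip 1 and 0.12 within chip 2. The second Trpv1 probe, detected in 2 control and 4 mutant pools, stood at 0.22 (SE 0.17, adjusted p = 0.91). The interval of the brighter probe reached from 0.964-fold to 1.37-fold.

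Trpv2, a relative of Trpv1 found in larger sensory neurons, ran from 7.73 to 8.26 in control and from 7.80 to 8.13 in mutant pools, so that the mutant range lay inside the control range. Its change was -0.04 (SE 0.10, adjusted p = 0.98). Trpm3, a noxious heat sensor that also answers to the steroid pregnenolone sulphate, stood at -0.01 (SE 0.09) by the 1 of its 5 probes that was tested. Its control pools ran from 5.77 to 6.05, inside the mutant range of 5.64 to 6.18. Trpm2, a warmth sensor gated by ADP-ribose, was detected in 5 pools of each genotype and ran from 5.09 to 5.70 in controls and from 5.30 to 5.82 in mutants, a change of 0.08 (SE 0.11). The calcium-activated Trpm4 stood at -0.17 (SE 0.21). Trpm4 ranged from 5.48 to 6.44 in controls and from 5.16 to 6.43 in mutants, and it was detected in 6 and 5 pools.

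The cold sensor Trpm8 was the 1 tested gene of its class of 3. It was detected in 3 pools of each genotype, near the limit of detection, and its value of 0.08 (SE 0.12, adjusted p = 0.95) rests on levels close to background. Control pools ran from 5.06 to 5.35 and mutant pools from 4.95 to 5.66, the wider range enclosing the other. Without background correction the value was 0.04.

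Among ATP receptors 4 of 7 genes were tested and 0 passed, with a median of 0.01. P2rx3, the ATP receptor of nociceptors, had the smallest SD between control pools of the 29 tested probes, with values from 8.46 through a median of 8.53 to 8.59. The mutant pools ran from 8.28 through a median of 8.53 to 9.25. The highest value belonged to mutant replicate 3 and the other 5 mutant pools reached no higher than 8.61. The change of 0.07 (SE 0.13, adjusted p = 0.96) became -0.06 without that pool, and it was 0.27 within chip 1, which held it, and -0.12 within chip 2.

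P2rx4, known from microglia and macrophages as well as neurons, ran from 7.70 to 8.0 in controls and from 7.64 to 8.25 in mutants by its brighter probe, with mutant replicate 3 again the highest. The changes of its 2 probes were -0.02 (SE 0.10) and -0.11 (SE 0.10). P2rx7, a receptor of immune cells and satellite glia, stood at 0.04 (SE 0.11) by the 1 of 4 probes that was tested, from 5.33 to 5.70 in controls and from 5.30 to 5.80 in mutants, and it was -0.15 within chip 1 and 0.24 within chip 2. P2rx6, a subunit that forms channels poorly by itself, stood at -0.15 (SE 0.11, adjusted p = 0.91), with control pools from 6.21 to 6.77 and mutant pools from 6.16 to 6.74. A second P2rx6 probe was detected on no array.

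Piezo2, the channel by which touch receptors and proprioceptors respond to force, was detected in all 12 pools. Control pools ran from 10.36 through a median of 10.52 to 10.71 and mutant pools from 10.26 through 10.58 to 10.82. The mutant range enclosed the control range, with mutant replicate 3 lowest and mutant replicate 6 highest. The change was 0.05 (SE 0.10, adjusted p = 0.97), and the interval reached from 0.893-fold to 1.20-fold. Within chips it stood at 0.04 and 0.05.

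Of the pacemaker channels Hcn2 and Hcn3 were tested. Hcn2, which drives repetitive firing in nociceptors, ran from 10.96 through a median of 11.11 to 11.27 in control pools and from 10.88 through 11.01 to 11.18 in mutant pools. The groups overlapped widely, with a change of -0.08 (SE 0.08, adjusted p = 0.93) and an interval from 0.844-fold to 1.06-fold. This was -0.22 within chip 1 and 0.07 within chip 2. Hcn3, a slowly opening family member, stood at 0.12 (SE 0.08, adjusted p = 0.90) by its brighter probe and 0.28 (SE 0.20, adjusted p = 0.91) by the dimmer, which was detected in 4 control and 5 mutant pools. The brighter Hcn3 probe ran from 8.05 to 8.34 in controls and from 8.18 to 8.53 in mutants.

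The other TRP genes include receptor-operated channels of the TRPC family, which open downstream of phospholipase C, and 5 of the 11 were tested. Trpc7 had the lowest value of all tested channel genes at -0.21 (SE 0.15, adjusted p = 0.90), from control levels of 6.52 to 7.11 and mutant levels of 6.28 to 7.17. Trpc4 stood at 0.15 (SE 0.11), Trpc6 at 0.06 (SE 0.12) and Trpc1 at -0.08 (SE 0.13) by its brighter probe. The dimmer Trpc1 probe was detected in 6 control and 2 mutant pools, and its change was -0.17 (SE 0.13, adjusted p = 0.91). Trpm6, a magnesium-permeable channel kinase, stood at 0.10 and -0.07 by its 2 tested probes, both close to background.

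Each chip held 3 pools of each genotype. Whether the genotype difference itself changed with the chip was tested in limma by an interaction term. Of all tested probes 0 (0%) passed after adjustment, and 2.82% had an unadjusted p under 0.05. Among the 29 channel probes the latter was 1, that of Trpc6. Trpc6 stood at 0.26 within chip 1 and -0.14 within chip 2 (adjusted p of the interaction = 1.0).

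The spread of the channels over pools showed which libraries weigh most. Mutant replicate 3 held the highest or lowest value of the 12 pools for 12 of the 29 probes (41.4%), against 35.6% of all tested probes. Mutant replicate 6 did so for 8 (27.6%), against 11% of all. The median SD between pools was 0.21 in controls and 0.22 in mutants for channel probes, and 0.16 and 0.18 for all tested probes. Without mutant replicate 3 there were still 0 channel probes past the threshold under limma, with 1 at an unadjusted p under 0.05.

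**Figure D4:**
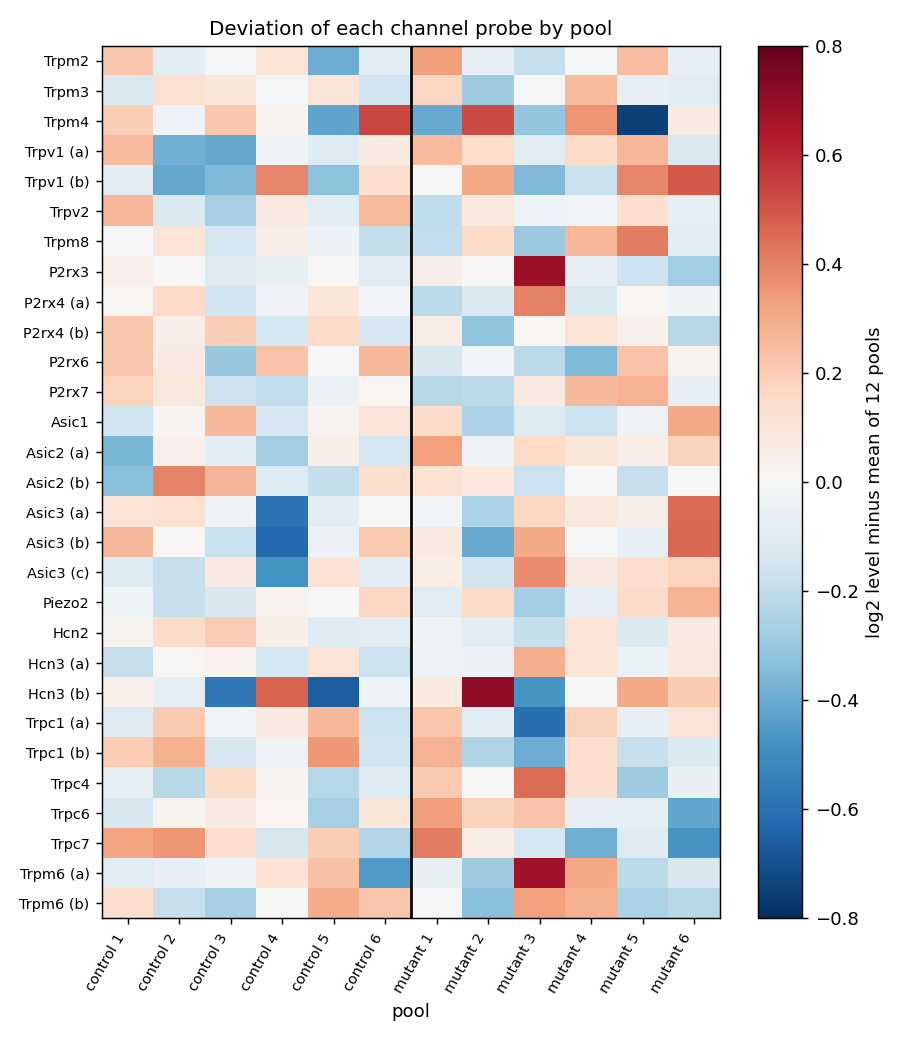
Log2 level of each of the 29 tested channel probes minus its mean over the 12 pools, with control pools left of the line and mutant pools right of it; letters order probes of a gene from brightest (a). No block of colour separates the genotypes, and mutant replicate 3 holds the highest or lowest value for 12 of the 29 probes.

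Of the pairs of channels whose levels were to be compared over the pools, Asic1 with Asic3 and Piezo2 with Trpv2 could be computed. Asic1 and Asic3 had a Pearson r of 0.44 (permutation p = 0.16, adjusted over the pairs 0.16) and a Spearman rho of 0.17 (permutation p = 0.59, adjusted p = 0.59) over 12 pools. Piezo2 and Trpv2 had an r of 0.45 (permutation p = 0.14, adjusted p = 0.16) and a rho of 0.54 (permutation p = 0.073, adjusted p = 0.15). Without the 2 pools farthest from the median of the first gene, r was 0.24 and 0.71. Within chip 1 the values were 0.12 and 0.43 and within chip 2 they were 0.68 and 0.24. Neither relation passed the threshold.

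Genes that act with these channels were read from lists of regulators and companion receptors. Of 68 listed genes 38 were tested and 0 passed under limma, with 1 at an unadjusted p under 0.05, where 6.51% of all tested genes lay; the median change was 0.00. The 1 gene was Pex5l, which encodes TRIP8b, the auxiliary subunit that controls surface delivery and gating of HCN channels. Its control pools ran from 7.69 to 8.12 and its mutant pools from 7.52 to 7.67, so that the groups did not overlap, with mutant below control, as in 0.607% of all tested genes. The change was -0.25 (SE 0.08, adjusted p = 0.43).

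The other HCN partners tested, Cav1 (0.09) and Nedd4l (0.07), did not pass either. Among ATP-related genes the ectonucleotidases Entpd3 (-0.20, adjusted p = 0.82) and Entpd2 (0.16), which break down extracellular ATP, and the receptor P2ry1 (0.08) had the smallest p-values of 9 tested. Among mechanosensory companions these were Tmem120a (-0.10), Tmc1 (-0.19) and Tmem63a (0.17) of 13. Among TRP regulators they were the kinases Prkcd (0.10) and Prkca (-0.19) and the TRPA1 modulator Tmem100 (0.08) of 9. The acid-related genes tested were the carbonic anhydrase Car2 (-0.22), the acid-sensitive potassium channel Kcnk3 (0.14) and the ASIC-binding protein Pick1 (-0.01). Of the remaining TRP-like families Mcoln1, a lysosomal channel, stood at 0.10.

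Markers of the neurons and other cells that could carry these channels were set beside them. Over all tested genes, 51% were above 0 and 6.51% had an unadjusted p under 0.05 in limma. In 0.607% of all tested genes the groups did not overlap, with mutant below control. Of the nociceptor markers 6 of 10 were tested, with 4 above 0, 2 below, 0 past the threshold in limma and 2 at an unadjusted p under 0.05. Adcyap1 stood at 0.29 (adjusted p = 0.51), Tac1 at 0.25, Scn10a at 0.16, Mrgprd at 0.016, Th at -0.02 and Scn11a at -0.04. Their summed linear level ran from 18130 to 20470 in control and from 16890 to 22060 in mutant pools, lowest in mutant replicate 3. Scn11a, the brightest of the 6 with a control mean of 13.66, weighs most in this sum. The markers of large neurons, 8 of 10 tested, summed to between 30100 and 34770 in controls and between 27590 and 32920 in mutants, with 7 of 8 below 0, 0 past the threshold and 1 at an unadjusted p under 0.05, Nefh at -0.30 (adjusted p = 0.13), whose groups did not overlap. For macrophages, cells that also express P2rx4 and P2rx7, 6 of 10 markers were tested, all 6 above 0, 0 past the threshold and 2 at an unadjusted p under 0.05 in limma. These 2 were the lysozyme genes Lyz2 at 0.56 (adjusted p = 0.14) and Lyz1 at 0.52 (adjusted p = 0.38). C1qb stood at 0.28, Cx3cr1 at 0.22, Aif1 at 0.10 and C1qa at 0.09. The 6 markers summed to 1392 to 2098 in controls and 1782 to 2772 in mutants, while the probes of Ptprc and Itgam were detected on no array. Lyz1, the brightest of the 6 with a control mean of 10.07, weighs most in this sum. Glial markers, 5 of 10 tested, summed to 16990 to 19020 in controls and 15320 to 18540 in mutants. Of these 4 were below 0, 0 passed the threshold in limma and 2 had an unadjusted p under 0.05, S100b at -0.36 (adjusted p = 0.14), whose groups did not overlap, and Mbp at -0.25 (adjusted p = 0.52). Neutrophil markers, 3 of 6 tested, summed to 163.3 to 533.4 in controls and 335.1 to 1780 in mutants. All 3 were above 0, with 0 past the threshold in limma and 2 at an unadjusted p under 0.05, S100a8 at 1.42 (adjusted p = 0.52) and S100a9 at 1.18 (adjusted p = 0.68). Neuron markers in general, 6 of 10 tested, summed to 29640 to 31370 in controls and 28810 to 31290 in mutants. Of these 4 were above 0, 2 below and 0 past the threshold in limma, with a median of 0.016. The 1 at an unadjusted p under 0.05 was Isl1 at -0.30 (adjusted p = 0.77). Isl1 is also the gene that drives Cre in the mutants, and a part of the Cre allele in its level was not tested. Fibroblast markers, 8 of 8 tested, were all below 0 with a median of -0.20, 0 past the threshold and 0 at an unadjusted p under 0.05 in limma. Markers of vessel cells, 7 of 9 tested, had 4 above 0 and 3 below, with 0 past the threshold. Lists for red blood cells, muscle and spinal cord were also read and are not described here. The part of these cells in the channel values was not tested.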

How the data were processed

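Per the submitters' processing notes, bead intensities came from GenomeStudio, with no version named there. The deposited intensity values were neither background-subtracted nor normalized between arrays. The deposited detection p-value of each probe stands beside its intensity, per the file headers. The other deposited table gives processed intensity values, down to -25.1, by steps that no source here describes, and served only in an alternative.

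The deposited intensities were brought to the log2 scale by the neqc function (limma 3.58.1, R 4.3.3): normexp background correction from the detection p-values, offset 16, and quantile normalization. Probes detected at p under 0.05 on at least 6 arrays were kept, 13177 of 25697. Of all probes, 23978 had 1 gene symbol, 0 had several and 1719 none; 23962 matched RefSeq by gene identifier (GRCm38.p6, for names and promoters only). Genotypes were compared with lmFit and eBayes on genotype alone, with Benjamini-Hochberg adjustment over all tested probes at 0.05. A gene was read from its brightest tested probe in counts of genes. The fit was tested on simulated data. No 2 arrays were identical. Same-numbered pools did not deviate together (correlations from -0.118 to 0.185), so no pairing was used. A summed linear level is the sum over tested genes of 2 raised to the log2 value. The number of arrays limits the precision.

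Channel genes were chosen by symbol, and a few are not reported here by name; partner genes were named by the smallest p, up to 3 a list. The members, lists and classes were chosen with earlier results of these data known. Alternatives covered background, normalization, filter, chip, replicate block, array weights, variance model and each array left out.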

Additional observations from a re-analysis of the deposited data

Results flagged for a closer look

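In 58 groups of 6 pools (29 probes, both genotypes) 4 held a pool that stood off from the rest. By chance about 1 in 20 such groups would. Among control pools, replicate 4 stood at 10.49 for the brightest Asic3 probe, 0.51 below the next control pool. Among mutant pools replicate 3 was the distant one each time. It stood at 9.25 for P2rx3, with the others between 8.28 and 8.61. For the brighter P2rx4 probe it stood at 8.25, with the others between 7.64 and 7.86. For the brighter Trpc1 probe it stood at 5.40, with the others between 5.92 and 6.23. Without mutant replicate 3 the change of P2rx3 was -0.06, that of P2rx4 -0.10 and that of Trpc1 0.03, none of them past the threshold.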

How the results depend on the processing

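Under the 25 alternatives no channel probe passed the threshold: 0 of 709 values, with a lowest adjusted p of 0.396, for the brighter Asic2 probe with array weights. For 11 of the 29 probes the change had 1 sign under every alternative that could test it, among them the brighter Asic2 probe (0.22 to 0.30), the third Asic3 probe (0.15 to 0.28), both Trpv1 probes, both Hcn3 probes and Trpc7 (-0.32 to -0.14). For the other 18, Piezo2 and Hcn2 included, the sign depended on the setting. Over all probes 31 were called in the reported fit, 4 within chip 1 alone and 1 within chip 2 alone, fits with 3 pools a genotype, and between 21 and 36 with 1 array left out. With the replicate number as a replicate block 23 probes were called and 0 channel probes. The smallest adjusted p of a channel probe was then 0.669. Under that block 3 of the 29 channel probes had an unadjusted p under 0.05 in limma, against 6.72% of all tested probes. The reported fit had 1 of 29, against 6.34%. The pools share only a number, and replicates 3 and 6 alone correlated best with their own number. Alternatives for the partner genes, the product of genotype and chip and the pairs were chosen after seeing the data. They called 0 partner genes and 0 products. With 1 array left out the r of Piezo2 and Trpv2 ran from 0.35 to 0.62. Its permutation p was 0.041 without mutant replicate 6, not adjusted for the arrays left out in turn. Over all 12 pools the permutation p was 0.14. Levels near background, as for Trpm8, Trpm2, Trpm6 and the dimmer probes of Trpv1, Hcn3 and Trpc1, limit what these arrays show: with an offset of 50 the dimmer Hcn3 probe stood at 0.15 instead of 0.28.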
